A study of Rattus norvegicus with 6 samples.

Results

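A set of 10 ion channel genes that are commonly studied in microglia were examined in the bulk RNA sequencing data of siponimod-treated primary rat microglia. They were chosen by name and comprised 5 potassium channel genes (Kcna3, Kcnn4, Kcnj2, Kcnk6 and Kcnk13), the proton channel gene Hvcn1, the cation channel genes Trpv2 and Trpm2, the anion channel subunit gene Lrrc8a and Clic1. All 10 were among the 23139 genes listed for each library, and all 10 had enough reads to be tested. The cells came from cortices of Wistar rats at postnatal day 1, were detached from mixed cultures and were purified with CD11b/c microbeads. All 6 libraries were from cells that received 100 ng/mL lipopolysaccharide (LPS, an outer membrane component of bacteria that activates microglia). The LPS group (3 replicates) received the solvent DMSO besides, and the LPS/siponimod group (3 replicates) received 50 µM siponimod, a modulator of sphingosine 1-phosphate receptors. How long the sequenced cells were exposed is not clear from the sources used here. No library of unstimulated cells or of siponimod without LPS was analysed here, and every fold change sets LPS/siponimod against LPS in cultured cells of newborn animals.

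Potassium channels set the resting potential of microglia, and the potassium that leaves through them is a known trigger of the NLRP3 inflammasome. The voltage-gated proton channel carries protons out of the cell while the NADPH oxidase moves electrons across the membrane. TRP channels admit calcium and other cations, and TRPM2 opens when ADP-ribose binds to it, for example under oxidative stress. LRRC8 proteins form the anion channel that opens when a cell swells.

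Total counts lay between 38080379 and 39484979 in the LPS libraries and between 38857441 and 46643859 in the LPS/siponimod libraries, which makes 1 count worth 0.0215 to 0.0270 CPM, the count of a gene relative to the size of its library after scaling with edgeR's TMM factors. Mean CPM are given ± SD over the 3 libraries of a group. Genes were compared with edgeR's quasi-likelihood test, with p-values adjusted over the 11977 genes tested. Differentially expressed genes (DEGs) passed 0.05 in the adjusted p and changed 1.5-fold or more (FC, fold change; SE, its standard error on the log2 scale). With 3 libraries per group an exact permutation test of a single gene cannot fall below p = 0.10, so that each adjusted p rests also on the spread that edgeR estimates over all genes.

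Markers of microglia were present in all libraries, with reads for each of the 15 markers examined. Their summed level was 12011, 9762 and 6656 CPM in LPS replicates 1, 2 and 3 and 5146, 6459 and 3725 CPM in the LPS/siponimod replicates, with most reads in Csf1r. Aif1 (log2 FC -1.88), Cx3cr1 (-3.65) and Itgam (-0.87) fell, with adjusted p of 0.0212, 0.0392 and 0.0112, and the other 12 were not DEGs by the quasi-likelihood test. Among all genes tested 25.3% were DEGs and 11.7% were downregulated DEGs, against 20.0% of the 15 markers. By the likelihood ratio test and by DESeq2, 8 markers each were lower. The calls of Aif1 (adjusted p 0.0543 to 0.0982) and Cx3cr1 (0.0823 to 0.147, log2 FC -3.85 to -2.71) were lost without LPS replicate 1 or 2 or LPS/siponimod replicate 1 or 3, and that of Itgam without LPS replicate 2 or LPS/siponimod replicate 1 or 3 (0.0532 to 0.0618). The log2 FC of Cx3cr1 was -5.01 without LPS/siponimod replicate 2, and with no filter on low counts its adjusted p was 0.0535. The study prints Aif1 and Cx3cr1 as downregulated in these libraries. It also prints P2ry12, named here after its values were seen, as downregulated. P2ry12 was not called by the quasi-likelihood test (log2 FC -3.40, adjusted p = 0.0788). With the replicate number as a block in the fit, 8 markers, P2ry12 among them, were lower and 1 was higher. Among all genes 16.4% were lower and 17.7% higher in that fit. No marker was called higher by the quasi-likelihood test without the block, with 1 at an unadjusted p under 0.05 and 1 each by the likelihood ratio test and DESeq2. In such bulk RNA, fewer cells of a type and less RNA per cell cannot be told apart. LPS replicate 3 stood apart from the other LPS libraries by transcripts of the oligodendrocyte lineage, which were also higher in LPS/siponimod replicate 3 than in the other LPS/siponimod libraries. Olig1, a transcription factor of the oligodendrocyte lineage, had 1, 5 and 515 counts in LPS replicates 1, 2 and 3 and 2, 3 and 17 in the LPS/siponimod replicates, and Pdgfra, a receptor of oligodendrocyte precursors, had 5, 4 and 284 against 1, 4 and 81. Both genes were picked after their values were seen. Summed over 8 markers of the oligodendrocyte lineage, of which Mbp had most reads, the level was 5.34, 5.37 and 36.0 CPM with LPS and 11.4, 10.3 and 22.6 CPM with LPS/siponimod. The 7 astrocyte markers, most of whose reads were from Slc1a3, summed to 42.5, 21.0 and 21.7 CPM against 27.5, 26.8 and 57.7 CPM. This sum hides that single markers differed in direction. Among LPS libraries, replicate 3 was highest for Gfap (1, 2, 88 counts), Slc1a2 (5, 3, 82) and Gja1 (11, 5, 41). It was lowest for Slc1a3 (1500, 775, 574) and Aldh1l1 (59, 21, 7). The neuron marker Map2 (0, 3, 162) was likewise highest in LPS replicate 3. These single genes, too, were picked after their values were seen. Each channel gene is therefore given with and without LPS replicate 3.

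Of the 10 channel genes, 2 were DEGs, both lower with LPS/siponimod. These were Trpm2 and Kcnk13. None was called higher by the quasi-likelihood test, and 1 (Lrrc8a) was at an unadjusted p under 0.05 and was called by the likelihood ratio test and by DESeq2. Among all genes tested, 25.3% were DEGs, 13.6% higher and 11.7% lower, so that the 20.0% of the channel genes lay near the share of all genes. The median log2 FC of the 10 genes was 0.03, that of all genes tested was -0.02, and 5 of the 10 had a negative log2 FC. The groups did not overlap for 4 of the 10 genes (Trpm2, Kcnk13, Lrrc8a and Kcnk6), compared with 49.3% of all genes tested. With the replicate number as a block, Trpv2 and Lrrc8a were upregulated DEGs in addition, and 34.0% of all genes were DEGs in that fit (17.7% higher, 16.4% lower). Without LPS replicate 3, Kcna3 was a further downregulated and Lrrc8a an upregulated DEG, against 30.3% of all genes (15.9% higher, 14.5% lower). The share of all genes called depended strongly on the libraries used. It was 13.9% without LPS replicate 1, 5.16% without LPS replicate 2, 6.22% without LPS/siponimod replicate 1, 23.4% without LPS/siponimod replicate 2 and 8.50% without LPS/siponimod replicate 3, so that calls lost in the smaller sets are to be read against these shares. With all 6 libraries it was 32.5% by DESeq2 (16.5% higher), 29.8% by the likelihood ratio test (15.3% higher), 25.6% with RLE scaling, 14.9% with no filter on low counts (6.53% lower) and 26.5% with a mean of at least 1 CPM.

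For the genes that these calls turn on, the sequence just upstream of the gene start is shown. The table of RefSeq gene starts used here, for the rat genome build GRCr8, was matched by symbol to 6 of the 10 genes (Kcna3, Kcnj2, Kcnk13, Trpv2, Trpm2 and Lrrc8a). This is a later build than mRatBN7.2, to which the authors mapped their reads. For each start, the 250 bases before it were searched on both strands for 6 short motifs. These were the cAMP response element TGACGTCA, the AP-1 site TGANTCA, the ATF4 element TGATGNAA, the interferon response element (also searched by its letters, which are not printed), the PU.1 core GAGGAAG and the E-box of lysosomal genes TCACGTGA. The windows of the 2 downregulated genes and of Lrrc8a are printed 5′ to 3′, all on the plus strand, with motif matches in capitals.
Trpm2, chr20:10704222-10704471: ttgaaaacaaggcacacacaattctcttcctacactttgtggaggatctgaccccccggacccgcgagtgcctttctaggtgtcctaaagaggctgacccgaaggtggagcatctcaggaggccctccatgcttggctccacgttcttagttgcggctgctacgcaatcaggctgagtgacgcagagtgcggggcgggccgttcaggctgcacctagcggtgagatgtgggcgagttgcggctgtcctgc
Kcnk13, chr6:124971559-124971808: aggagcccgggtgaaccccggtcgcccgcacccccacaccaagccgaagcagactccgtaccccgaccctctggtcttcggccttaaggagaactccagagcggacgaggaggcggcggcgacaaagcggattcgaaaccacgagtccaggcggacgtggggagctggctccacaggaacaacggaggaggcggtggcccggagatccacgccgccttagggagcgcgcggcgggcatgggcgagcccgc
Lrrc8a, chr3:33908086-33908335: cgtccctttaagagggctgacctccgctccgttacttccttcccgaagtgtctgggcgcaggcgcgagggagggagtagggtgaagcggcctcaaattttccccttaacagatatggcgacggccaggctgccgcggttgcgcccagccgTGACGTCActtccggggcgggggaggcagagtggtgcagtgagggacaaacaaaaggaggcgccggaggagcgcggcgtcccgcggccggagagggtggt

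In the Lrrc8a window, the letters TGACGTCA began 100 bases before the start. This motif was found in 1.59% of the 33469 windows of the same length. The windows of Trpm2, Kcnk13, Kcna3 and Trpv2 held none of the 6 motifs. The Kcnj2 window held the PU.1 core at 2 positions, a motif found in 10.2% of all windows. A match of these letters is a description of the sequence and not evidence of binding.

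Trpm2 encodes the calcium-permeable cation channel that ADP-ribose opens. Its level was 223, 174 and 129 CPM in LPS replicates 1, 2 and 3 and 28.7, 45.4 and 25.2 CPM in the LPS/siponimod replicates. Every LPS/siponimod library lay far below every LPS library. The means were 175 ± 47.1 and 33.1 ± 10.8 CPM, a 5.29-fold decrease with a log2 FC of -2.40 (SE 0.31, adjusted p = 0.00733, edgeR quasi-likelihood test). By p-value Trpm2 ranked 42 among the genes with a negative log2 FC. It remained a DEG in all 12 alternative fits, with adjusted p between 0.00818 and 0.0431 when single libraries were left out (log2 FC -2.58 without LPS replicate 3). The study lists Trpm2 among the downregulated genes of these same libraries, so that its direction is not independent evidence.

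Of 6 genes that supply or remove ADP-ribose, the ligand of TRPM2, 3 were downregulated DEGs, with a median log2 FC of -0.56. Among all genes tested, 11.7% were downregulated and 13.6% upregulated DEGs. None of the 6 was upregulated by the quasi-likelihood test, the likelihood ratio test or DESeq2, nor at an unadjusted p under 0.05 (0 of 6). At a share of 13.6%, such an absence among 6 genes says little. Cd38, which encodes a surface enzyme that makes ADP-ribose from NAD, had 6969, 8590 and 3883 counts in LPS and 316, 899 and 200 in LPS/siponimod libraries (log2 FC -4.02, SE 0.64, adjusted p = 0.0107). The groups were well separated. Parp1, a nuclear enzyme that builds ADP-ribose chains, fell from 216 ± 40.4 to 129 ± 9.69 CPM (log2 FC -0.74, SE 0.17, adjusted p = 0.0259). Its relative Parp2 fell from 15.7 ± 0.675 to 9.56 ± 1.66 CPM (log2 FC -0.72, adjusted p = 0.0271). Bst1 (log2 FC 0.07), another ADP-ribosyl cyclase gene, Parg (-0.22), whose enzyme cuts ADP-ribose chains, and Adprs (-0.40), a hydrolase gene, were not DEGs. The study printed Cd38 as a leading downregulated gene of these libraries. Cd38 lost its call when LPS/siponimod replicate 1 was left out (adjusted p = 0.0558), and its log2 FC was -4.88 without LPS/siponimod replicate 2. Parp1 lost its call without any one library other than LPS replicate 3 (adjusted p 0.0555 to 0.113), and Parp2 without LPS replicate 1 or 2 or LPS/siponimod replicate 1 or 3 (0.0718 to 0.114).

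The other member of the TRP family, Trpv2, encodes a cation channel found in macrophages and microglia. Its level was 285, 136 and 70.6 CPM with LPS and 402, 277 and 234 CPM with LPS/siponimod. The LPS libraries spanned a wide range, and the highest of them exceeded the lower LPS/siponimod values. The log2 FC was 0.89 (SE 0.51, 95% interval -0.34 to 2.13, adjusted p = 0.222). Trpv2 was higher with LPS/siponimod in every pair of libraries with the same number (3 of 3), by 0.50, 1.03 and 1.73 on the log2 scale, and with the replicate block it was an upregulated DEG (log2 FC 1.08, SE 0.26, adjusted p = 0.0315). Without LPS replicate 3, in which Trpv2 was lowest, the log2 FC without the block was 0.54, and without LPS replicate 1 it was 1.57, neither being a DEG.

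Among all genes tested, 13.6% were upregulated and 11.7% downregulated DEGs, so that a lack of downregulated ones among few genes says little. Among the other TRP superfamily genes, 3 of 8 tested were upregulated DEGs, with a median log2 FC of 0.83. All 3 were mucolipins, cation channels of lysosomes and endosomes. None of the 8 was downregulated by the quasi-likelihood test, the likelihood ratio test or DESeq2, nor at an unadjusted p under 0.05 (0 of 8). Without LPS replicate 3, however, 1 of them was a downregulated DEG, Trpv4, a cation channel gene named here after its values were seen. It had 35, 31 and 0 counts in LPS and 12, 6 and 3 in LPS/siponimod libraries. Mcoln1 had 681, 689 and 546 counts in LPS and 2708, 1774 and 2019 in LPS/siponimod libraries, with no overlap (log2 FC 1.53, SE 0.18, adjusted p = 0.00655). Mcoln2 rose from 126, 90 and 82 counts to 2649, 874 and 2926 counts (log2 FC 4.22, SE 0.53, adjusted p = 0.00726). Mcoln3 rose from 37, 21 and 18 to 711, 137 and 1109 counts (log2 FC 4.48, SE 0.85, adjusted p = 0.0157), and LPS/siponimod replicate 2 was the lowest of its group for all 3 genes. Mcoln1 and Mcoln2 kept their call whichever library was left out. Mcoln3 lost it without LPS replicate 2 (adjusted p = 0.0756) or LPS/siponimod replicate 1 (0.0616), and its log2 FC was 3.76 without LPS/siponimod replicate 3. Pkd2, which encodes polycystin 2 and was picked after its values were seen, was just short of a call (log2 FC 1.34, adjusted p = 0.0548), and it was a DEG with the block (1.34, adjusted p = 0.00637), without LPS replicate 3 (adjusted p = 0.0259) or LPS/siponimod replicate 2 (0.0452), by DESeq2 (adjusted p = 0.00894) and by the likelihood ratio test (adjusted p = 0.0136). Trpm7, a channel with a kinase domain and the gene of this list with most reads, had 84.2 ± 4.37 CPM with LPS and 92.4 ± 1.62 CPM with LPS/siponimod (log2 FC 0.13, 95% interval -0.11 to 0.38, adjusted p = 0.348). The remaining 15 listed genes had too few reads to be tested, and 5 of them had no read in any library.

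Kcnk13 encodes THIK-1, a two-pore potassium channel that gives microglia much of their resting potassium conductance. Its level was 26.0, 28.0 and 18.9 CPM in LPS replicates 1, 2 and 3 and 6.13, 14.8 and 6.56 CPM in the LPS/siponimod replicates. The groups did not overlap, LPS/siponimod replicate 2 coming closest to the LPS values. Kcnk13 fell by 1.41 on the log2 scale, from 24.3 ± 4.80 to 9.18 ± 4.90 CPM (2.65-fold, SE 0.39, adjusted p = 0.0403, edgeR quasi-likelihood test). With the replicate block the log2 FC was -1.50 (adjusted p = 0.0131), and without LPS replicate 3 it was -1.56 (adjusted p = 0.0383). The call was lost without LPS replicate 1 (adjusted p = 0.104), LPS replicate 2 (0.136), LPS/siponimod replicate 1 (0.141) or LPS/siponimod replicate 3 (0.120), and with no filter on low counts (0.0521). In these 5 fits the log2 FC lay between -1.41 and -1.19.

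Kcnk6 encodes TWIK-2, the two-pore channel through which macrophages are known to lose potassium during inflammasome activation. It showed the opposite sign to Kcnk13, with 24.4, 22.7 and 13.4 CPM under LPS and 35.8, 24.7 and 25.6 CPM under LPS/siponimod. The groups did not overlap, but LPS replicate 1 and LPS/siponimod replicate 2 were nearly level. The log2 FC was 0.51 (SE 0.27, 95% interval -0.15 to 1.16, adjusted p = 0.196), and 0.29 without LPS replicate 3 (adjusted p = 0.280).

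Kcna3 encodes the voltage-gated channel Kv1.3, a well-studied current of activated microglia. Its level was 21.9, 12.2 and 8.69 CPM with LPS and 6.56, 9.03 and 9.0 CPM with LPS/siponimod. LPS replicate 1 was high, and LPS replicate 3 lay within the range of LPS/siponimod. The log2 FC was -0.80 (SE 0.36, 95% interval -1.67 to 0.07, adjusted p = 0.140). Without LPS replicate 3 Kcna3 was a downregulated DEG (log2 FC -1.05, adjusted p = 0.0461), and without LPS replicate 1 the log2 FC was -0.34 (adjusted p = 0.388).

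Kcnj2 encodes the inward rectifier Kir2.1, which holds the membrane potential near that of potassium. Its counts were 15319, 12755 and 21698 in LPS libraries and 25911, 22080 and 18096 in the others. In CPM these were 413, 331 and 584 against 558, 495 and 441, so that LPS replicate 3 was the highest of all 6 libraries and the groups overlapped. The log2 FC was 0.17 (SE 0.24, 95% interval -0.41 to 0.75, adjusted p = 0.620), and 0.42 without LPS replicate 3 (adjusted p = 0.127). Kcnn4 encodes KCa3.1, which opens when intracellular calcium rises. It had only 47, 53 and 19 counts in LPS and 49, 42 and 27 in LPS/siponimod libraries, and was not called (log2 FC -0.25, 95% interval -1.37 to 0.87, adjusted p = 0.709; without LPS replicate 3 -0.58, adjusted p = 0.238).

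**Figure D1:**
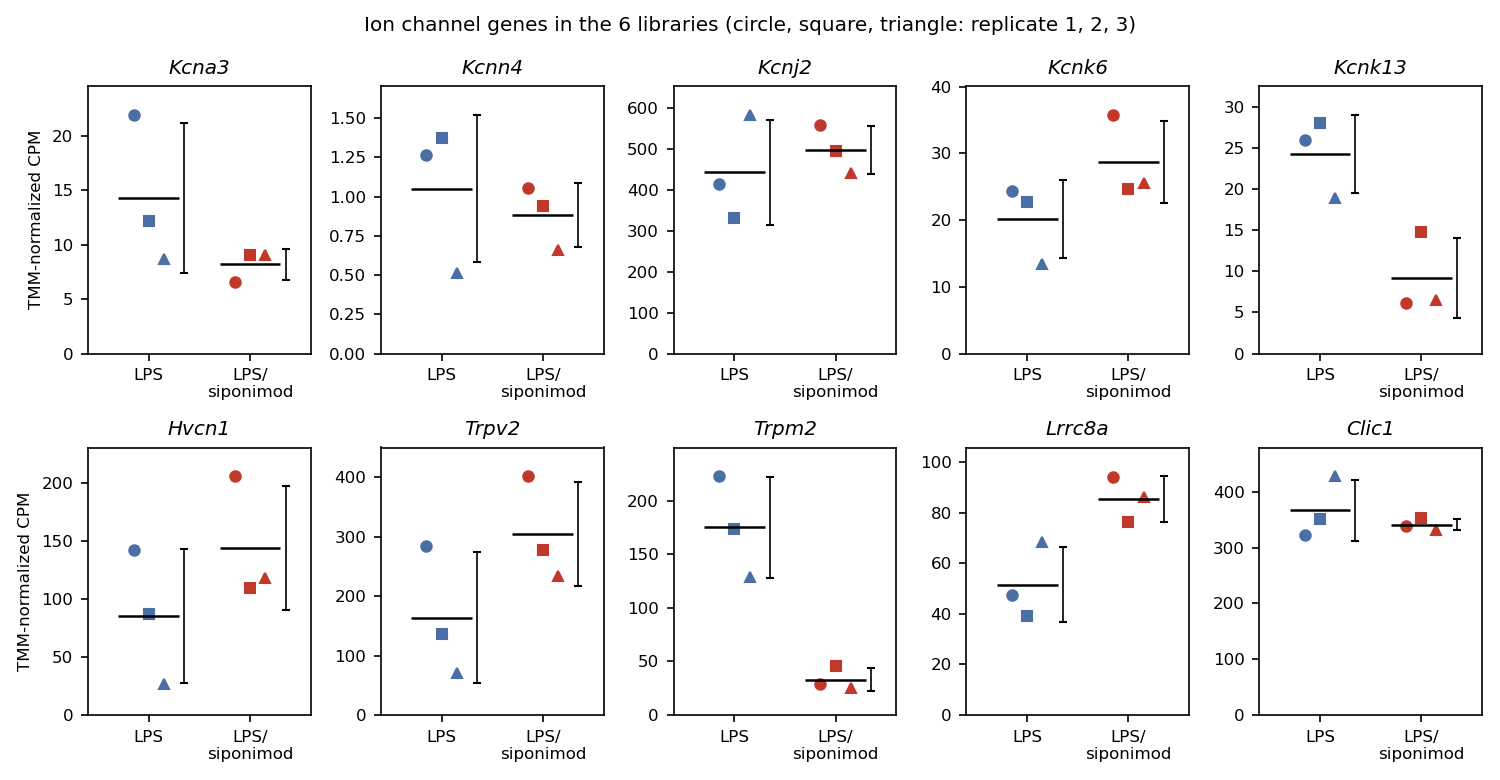
TMM-normalized CPM (linear axes from 0, one scale per gene) of the 10 channel genes in 3 LPS (blue) and 3 LPS/siponimod (red) libraries; symbols mark the replicate number, horizontal lines the mean and vertical bars ± 1 SD. Trpm2 lies between 129 and 223 CPM with LPS and between 25.2 and 45.4 CPM with LPS/siponimod, whereas the LPS values of Hvcn1 and Trpv2 spread widely and overlap those of LPS/siponimod.

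The data hold 86 further genes whose names begin with Kcn. Of these, 14 had no read in any library, 66 did not pass the filter on low counts (these 14 included), and 20 were tested. Of these 2 were downregulated DEGs, 10.0% of those tested against 11.7% of all genes, with a median log2 FC of -0.13. None was upregulated by the quasi-likelihood test, with 3 at an unadjusted p under 0.05 and 2 each by the likelihood ratio test and DESeq2. Kcnab2, which encodes a beta subunit of voltage-gated potassium channels and took most reads of the list, had 1423, 1807 and 1562 counts in LPS and 1095, 1349 and 1252 in LPS/siponimod libraries (log2 FC -0.59, SE 0.15, adjusted p = 0.0317). Scaled to depth, its groups did not overlap (42.5 ± 4.27 against 28.1 ± 3.94 CPM). Kcng2, a modifier subunit of such channels, fell from 312, 122 and 39 to 39, 34 and 15 counts (log2 FC -2.68, SE 0.80, adjusted p = 0.0498). Both calls were lost without LPS replicate 1 or 2 or LPS/siponimod replicate 1 or 3, that of Kcng2 also without LPS/siponimod replicate 2, with adjusted p of 0.0599 to 0.124 for Kcnab2 and 0.110 to 0.144 for Kcng2. The log2 FC of Kcng2 was -1.67 without LPS replicate 1, and its call was also lost with no filter on low counts (adjusted p = 0.0643) and with a mean of at least 1 CPM (0.0505). With the replicate block 7 of the 20 were DEGs, Kcna7 and Kcnq5 higher and Kcna2, Kcnab2, Kcng2, Kcnj1 and Kcnj5 lower. Those outside the first fit's calls are named after their values were seen. Kcna2, a voltage-gated channel gene, had 672, 861 and 130 counts in LPS and 13, 209 and 16 in LPS/siponimod libraries (log2 FC -3.04, adjusted p = 0.113; with the block -3.60, adjusted p = 0.0234). It was called by DESeq2 (adjusted p = 0.0142) and the likelihood ratio test (0.0384), and without LPS/siponimod replicate 2 its log2 FC was -5.45 (adjusted p = 0.0215). Without the block, Kcna7 and Kcnj1 were called by DESeq2 and the likelihood ratio test, Kcnj1 also without LPS replicate 3 or LPS/siponimod replicate 2 (adjusted p = 0.0360 and 0.0363), and Kcnq5 without LPS replicate 3 (adjusted p = 0.0293).

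Hvcn1 encodes the voltage-gated proton channel. Its level was 142, 87.2 and 26.8 CPM with LPS and 206, 110 and 118 CPM with LPS/siponimod. LPS replicate 3 was the lowest, and LPS replicate 1 lay above 2 of the LPS/siponimod libraries. The log2 FC was 0.76 (SE 0.59, 95% interval -0.66 to 2.18, adjusted p = 0.357). The differences within same-numbered pairs were 0.53, 0.33 and 2.14 on the log2 scale, and the log2 FC was 0.33 without LPS replicate 3 (adjusted p = 0.492) and 1.35 without LPS replicate 1 (adjusted p = 0.171). With the replicate block the log2 FC was 0.98 (adjusted p = 0.107).

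Of the 6 genes of the NADPH oxidase, whose activity the proton channel supports, none was a DEG by the quasi-likelihood test, the likelihood ratio test or DESeq2. Among all genes tested, 25.3% were DEGs by the quasi-likelihood test. With a negative log2 FC, 1 of the 6 genes reached an unadjusted p under 0.05, and the median log2 FC was -0.38. Cybb, the membrane subunit that carries the electrons, had 59708, 51003 and 20422 counts in LPS and 24379, 31138 and 7173 in LPS/siponimod libraries (log2 FC -1.32, SE 0.60, adjusted p = 0.142). LPS replicate 3 was low, and the groups overlapped. With the block Cybb was a downregulated DEG (log2 FC -1.40, adjusted p = 0.0108). Its partner Cyba (log2 FC -0.27) and the cytosolic subunits Ncf4 (-0.67) and Rac2 (-0.49) were not called. Ncf1, which took most reads of this list, had a log2 FC of -0.03 (95% interval -0.95 to 0.88, adjusted p = 0.955). Without LPS/siponimod replicate 2 Ncf4 was a downregulated DEG (log2 FC -1.0, adjusted p = 0.0260).

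Lrrc8a encodes the obligatory subunit of the volume-regulated anion channel. Its level was 47.3, 39.2 and 68.2 CPM in LPS replicates 1, 2 and 3 and 94.1, 76.2 and 86.0 CPM in the LPS/siponimod replicates. All 3 LPS/siponimod libraries lay above all LPS libraries, LPS replicate 3 being nearest. The means were 51.6 ± 15.0 and 85.4 ± 8.99 CPM (SD, n = 3 each; log2 FC 0.73, SE 0.22, 95% interval 0.19 to 1.27). With an adjusted p of 0.0533 in the quasi-likelihood test, Lrrc8a was narrowly not a DEG. It was one with the replicate block (log2 FC 0.76, adjusted p = 0.0264), without LPS replicate 3 (0.99, adjusted p = 0.0144), with edgeR's likelihood ratio test (adjusted p = 0.0238) and with DESeq2 (adjusted p = 0.0164).

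The partner subunits of the LRRC8 channel went in both directions. Lrrc8d rose from 2863, 2685 and 2419 to 5676, 5241 and 4472 counts (70.7 ± 6.14 against 116 ± 6.63 CPM, SD, n = 3 each; log2 FC 0.72, SE 0.12, adjusted p = 0.0114). Lrrc8c fell from 1241, 976 and 829 to 751, 861 and 647 counts (27.0 ± 5.78 against 17.1 ± 1.93 CPM; log2 FC -0.66, SE 0.19, adjusted p = 0.0447). Scaled to depth, neither gene's groups overlapped. Lrrc8b was not called (log2 FC 0.50, adjusted p = 0.195), and Lrrc8e had 0, 0 and 0 counts against 5, 2 and 3 and was not tested. The call of Lrrc8d was lost without LPS replicate 2 (adjusted p = 0.0614) or LPS/siponimod replicate 1 (0.0607). That of Lrrc8c was lost without any library other than LPS replicate 3 (0.0606 to 0.162) and with no filter on low counts (0.0635).

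Clic1 encodes a chloride intracellular channel protein that is known to move to the membrane of activated microglia. Its level was 322, 351 and 428 CPM with LPS and 339, 353 and 332 CPM with LPS/siponimod, which overlapped. The log2 FC was -0.10, with the narrowest 95% interval of the 10 genes (-0.48 to 0.27, adjusted p = 0.636), and 0.03 without LPS replicate 3. Its relative Clic4 rose from 7039, 5668 and 6808 to 17970, 12346 and 13032 counts (173 ± 23.0 against 327 ± 55.7 CPM, SD, n = 3 each; log2 FC 0.92, SE 0.18, adjusted p = 0.0179). Clic5 had no read in the LPS libraries and 43, 18 and 14 counts with LPS/siponimod, at least 6.97-fold higher when a floor of 3 counts per LPS library is used (adjusted p = 0.0179). Both calls were lost without LPS replicate 2 or LPS/siponimod replicate 1 or 3, with adjusted p of 0.0598 to 0.0747 for Clic4 and 0.0530 to 0.0830 for Clic5. Clic2 was not called (log2 FC -0.90, adjusted p = 0.498; -0.15 without LPS replicate 1 and -1.52 without LPS/siponimod replicate 2), and Clic3 and Clic6 had too few reads.

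**Figure D2:**
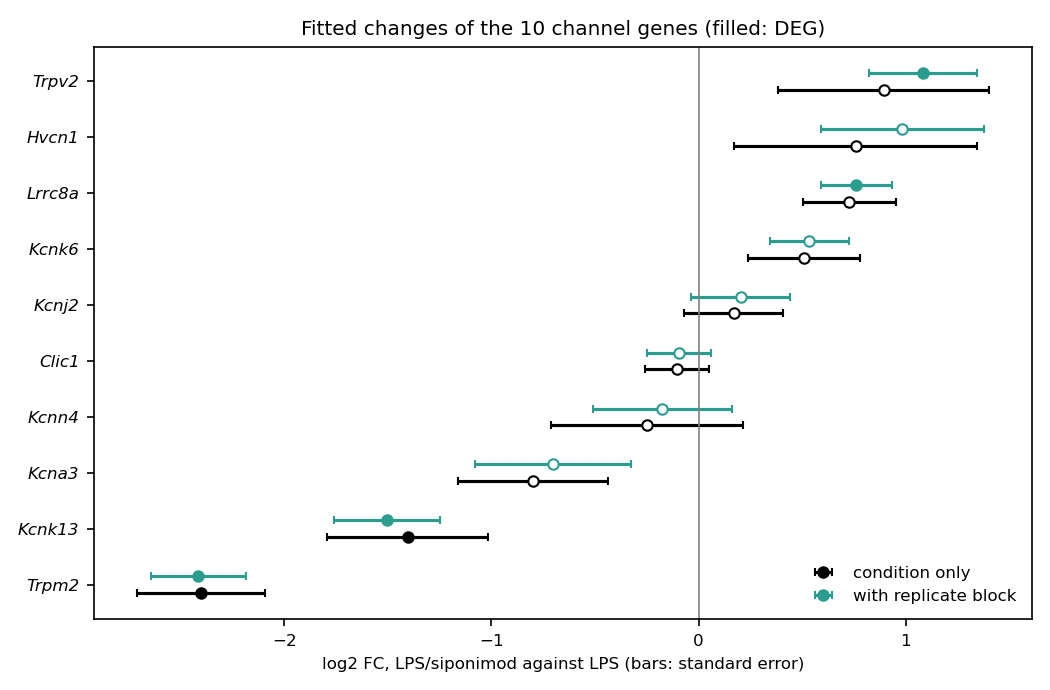
Fitted log2 FC of LPS/siponimod against LPS for the 10 channel genes (horizontal axis) with the standard error as bars, in the fit with the condition only (black) and with the replicate block (green); filled points are DEGs. Trpm2 and Kcnk13 are DEGs in both fits and Trpv2 and Lrrc8a in the fit with the block.

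Calcium entry and ATP-gated cation channels work together with calcium-activated potassium channels and TRP channels. Of 7 such genes, 1 was an upregulated and 1 a downregulated DEG, and the median log2 FC was 0.49. Among all genes tested, 13.6% were upregulated and 11.7% downregulated DEGs. Orai1, the pore of store-operated calcium entry, rose from 50.8 ± 4.97 to 77.9 ± 10.5 CPM (log2 FC 0.62, SE 0.15, adjusted p = 0.0276). Stim1, the calcium sensor in the endoplasmic reticulum that opens this pore, fell from 69.9 ± 11.2 to 40.8 ± 7.13 CPM (log2 FC -0.78, SE 0.18, adjusted p = 0.0270). Both calls were lost without LPS replicate 1 or 2 or LPS/siponimod replicate 1 or 3, with adjusted p of 0.0559 to 0.109 for Orai1 and 0.0798 to 0.117 for Stim1. Orai3 had an adjusted p of 0.0485 but a change under 1.5-fold (log2 FC 0.49), and it passed both thresholds without LPS/siponimod replicate 2 (log2 FC 0.59, adjusted p = 0.0268). Orai2 was a DEG with the block (log2 FC 0.83, adjusted p = 0.0252) and without LPS replicate 3 (1.23, adjusted p = 0.0163), but not otherwise (0.73, adjusted p = 0.172). The ATP receptor P2rx4, with most reads of this list, had 12484, 8501 and 7070 counts against 10734, 6632 and 5727 (log2 FC -0.53, adjusted p = 0.215). P2rx7, whose opening leads to potassium loss, had 363, 284 and 76 counts against 1214, 238 and 201 (log2 FC 0.92, adjusted p = 0.433), and its log2 FC was -0.33 without LPS/siponimod replicate 1. The sensor Stim2 was not called (log2 FC -0.15).

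Among 7 genes of the pump and exchangers that maintain the sodium and potassium gradients, 3 were upregulated and 1 was a downregulated DEG. The shares among all genes tested were 13.6% and 11.7%. Atp1b3, a beta subunit of the sodium-potassium pump with most reads of the list, fell from 892 ± 21.5 to 581 ± 63.3 CPM (log2 FC -0.62, SE 0.15, adjusted p = 0.0299). The alternative subunit Atp1b1 had 7048, 9533 and 1542 counts in LPS and 28733, 26755 and 24715 in LPS/siponimod libraries, without overlap but with LPS replicate 3 far below the rest. It was not called by the quasi-likelihood test (log2 FC 1.93, adjusted p = 0.0560), but was by DESeq2 (adjusted p = 0.00335) and the likelihood ratio test (0.00746), with the block (2.24, adjusted p = 0.0351) and without LPS replicate 3 (1.47, adjusted p = 0.0118). The sodium-potassium-chloride cotransporter gene Slc12a2 rose from 5.26 ± 1.89 to 15.2 ± 4.69 CPM (log2 FC 1.53, SE 0.34, adjusted p = 0.0238), and the potassium-chloride cotransporter gene Slc12a7 was not called (log2 FC -0.34). The calls of Atp1b3 and Slc12a2 were lost without LPS replicate 1 or 2 or LPS/siponimod replicate 1 or 3, with adjusted p of 0.0652 to 0.130 for Atp1b3 and 0.0602 to 0.0928 for Slc12a2. With no filter on low counts the adjusted p of Atp1b3 was 0.0521.

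Of 5 genes of the inflammasome that senses potassium loss, 3 were downregulated and 1 was an upregulated DEG (median log2 FC -1.62). The shares among all genes tested were 11.7% and 13.6%. The sensor gene Nlrp3 had 6449, 5509 and 9365 counts in LPS and 1357, 2302 and 2193 in LPS/siponimod libraries (log2 FC -2.08, SE 0.32, adjusted p = 0.00984). Pycard, the adaptor, fell from 30.3 ± 18.7 to 4.81 ± 3.21 CPM (log2 FC -2.66, SE 0.72, adjusted p = 0.0389), and the protease gene Casp1 from 4065, 4047 and 3867 to 2443, 2999 and 2072 counts (log2 FC -0.90, SE 0.14, adjusted p = 0.0105). Nek7, a kinase that binds NLRP3 after potassium efflux and the gene of this list with most reads, went the other way, from 87.8 ± 15.4 to 234 ± 39.5 CPM (log2 FC 1.41, SE 0.20, adjusted p = 0.00838). Gsdmd, the pore-forming substrate of caspase 1, was not called by the quasi-likelihood test (log2 FC -1.62, adjusted p = 0.0538) and was by DESeq2 (adjusted p = 0.00529) and the likelihood ratio test (0.00918), with the block (-1.56, adjusted p = 0.00969) or without LPS replicate 3 (-1.98, adjusted p = 0.0174). Nlrp3 and Pycard are printed by the study as downregulated in these libraries. Nlrp3 and Nek7 were DEGs whichever library was left out, Casp1 lost its call without LPS replicate 2 (adjusted p = 0.0520) or LPS/siponimod replicate 1 (0.0576), and Pycard without LPS replicate 1 or 2 or LPS/siponimod replicate 1 or 3 (0.102 to 0.149), its log2 FC being -3.37 without LPS/siponimod replicate 2.

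**Figure D3:**
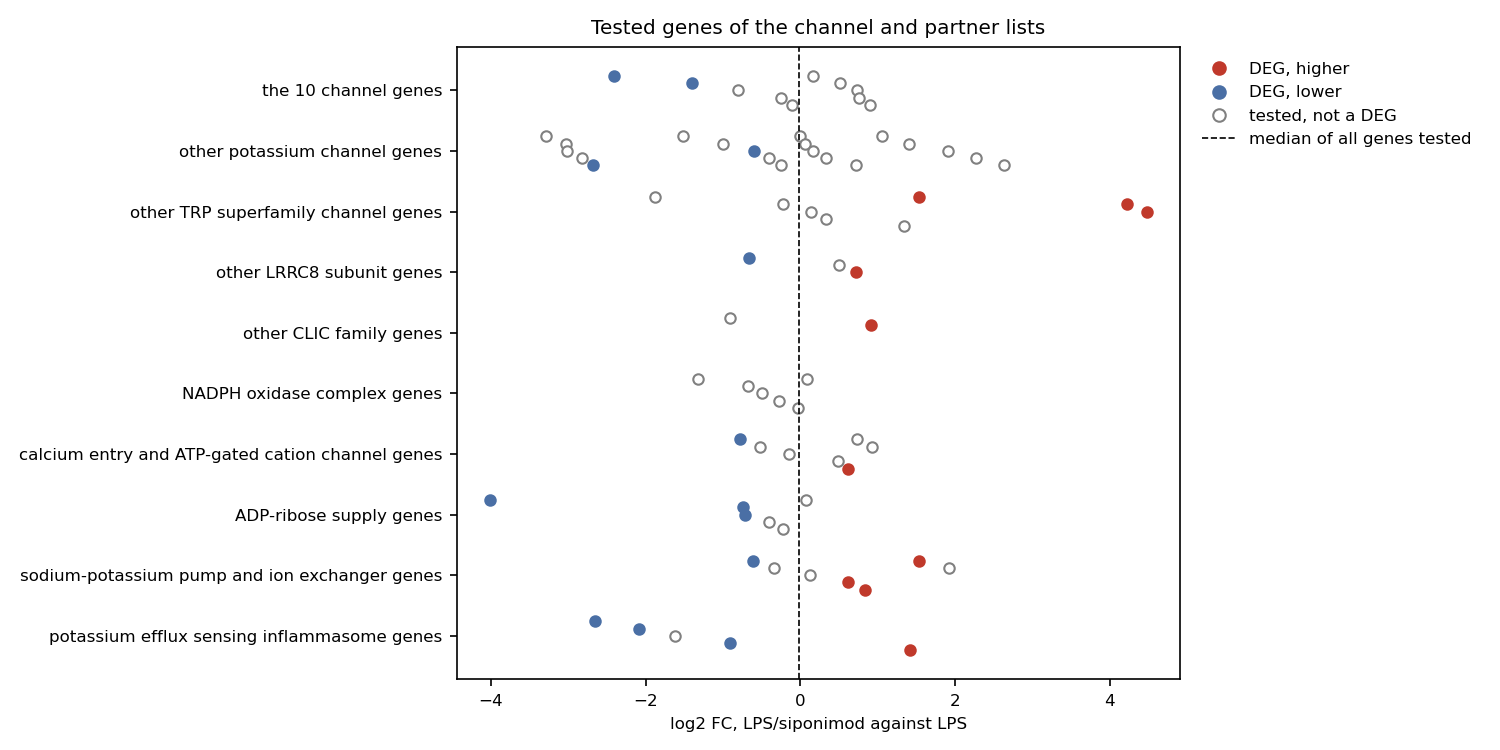
Log2 FC of LPS/siponimod against LPS (horizontal axis) of each tested gene of the 10 channel genes and of 9 lists of related genes, 1 point per gene, with DEGs filled; Clic5, which had no read with LPS, is left out. The dashed line is the median of all genes tested, -0.02. Mcoln2 (4.22) and Mcoln3 (4.48) lie at the right end of the TRP list and Cd38 (-4.02) at the left end of the ADP-ribose list.

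**Figure D4:**
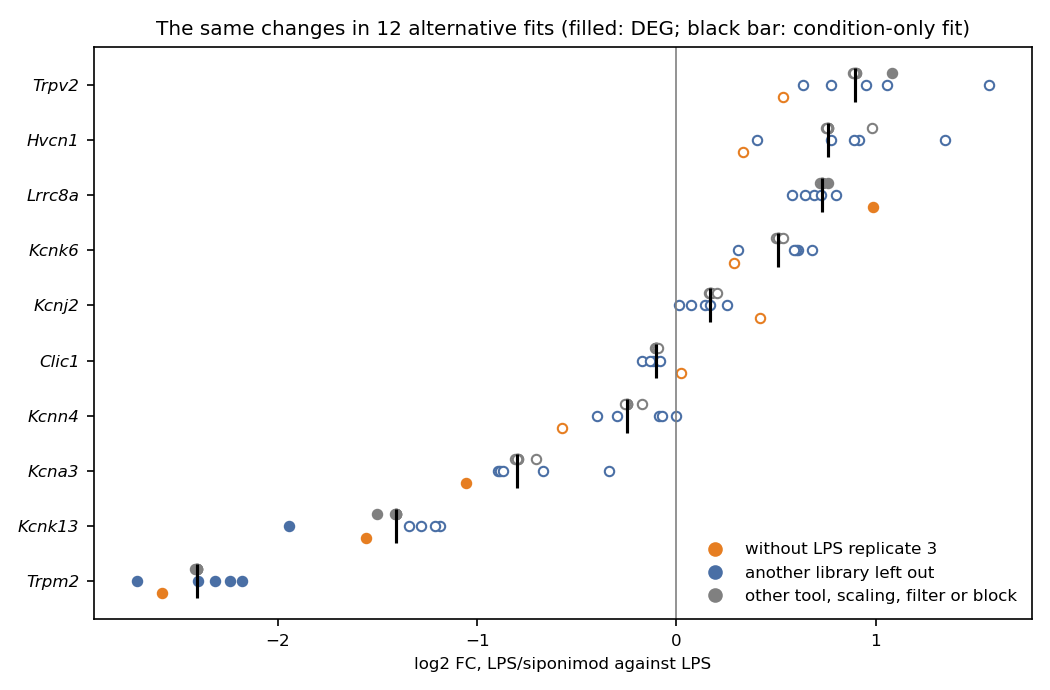
Log2 FC (horizontal axis) of the 10 channel genes in 12 alternative fits (11 for Kcnn4), with fits that leave out LPS replicate 3 in orange, fits that leave out another library in blue and other settings in grey; filled points are DEGs and the black bar is the fit with the condition only. Trpm2 is filled in every fit, Kcnk13 in 7 of 12, and Clic1 changes sign without LPS replicate 3.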

How the data were processed

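PolyA-selected mRNA of 6 cultures was sequenced as single-end reads, with 3 biological replicates per condition per the study's methods. The authors trimmed the reads for adapters and quality and mapped them to mRatBN7.2 in the CLC Genomics Workbench. They deposited total read counts per gene, without normalization. How strand and reads matching several genes were handled is not given in the sources used here, so that values of overlapping or near-identical genes are uncertain. One row with no name, which held 0 counts, was left out. The submitters' processing notes name bcl2fastq (version 2.20.0.422).

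From the deposited counts, TMM factors were computed and genes filtered with filterByExpr (minimum count 10, minimum total 15) in edgeR 4.0.16 under R 4.3.3. Condition was the only term in glmQLFit and glmQLFTest, with Benjamini-Hochberg adjustment over 11977 genes. The standard error is the log2 FC divided by the root of the F statistic, and 95% intervals use the t quantile of the test's degrees of freedom. For differences within pairs, 2 was added to each count before taking log2 CPM. Where every library of a group had at most 3 counts, a bound against 3 counts per library is given instead of the fitted fold, and this bound covers counting error only.

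Replicates carry the same numbers in both groups. After centring on group means, same-numbered libraries correlated over genes at 0.418, 0.546 and 0.610, and other pairs of libraries at most at 0.084. On these values, and not on a statement of the study, the numbers were taken to pair the libraries, and the fit with a replicate block is printed where it changed a call. Alternatives were RLE scaling, DESeq2 (version 1.42.0), the likelihood ratio test, 2 other filters, the block and each library left out. A gene that was not called is not shown to be unchanged.

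The members, gene lists, tests and alternatives were chosen with earlier results of these data known. Named genes are the members, up to 3 DEGs per direction with the smallest p and the gene with most reads of each list, any gene of lists with at most 7 genes, and others marked as picked after their values were seen. Some genes of the lists count in the totals and are not reported here. The motifs were chosen after the data were examined.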

Additional observations from a re-analysis of the deposited data

How the results depend on the processing

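The number of DEGs among all genes depended most on which library was left out, with 469 to 1941 higher and 182 to 1772 lower against 1633 and 1403 with all 6 libraries, the fewest without LPS replicate 2 (469 and 182) and LPS/siponimod replicate 1 (592 and 191). Of the 119 combinations of a channel gene and an alternative, 107 kept their sign and their side of the thresholds, 5 lost a call, 6 gained one and 1 changed sign. Among the 10 channel genes, 0 were upregulated DEGs, and 1 was with DESeq2 and with the likelihood ratio test, 2 with the replicate block and 0 to 1 with a library left out. Downregulated ones were 2, 1 with no filter on low counts and 1 to 3 with a library left out. For the other potassium channel genes there were 2 DEGs, 7 with DESeq2, 6 with the likelihood ratio test, 1 with no filter, 1 with a mean of at least 1 CPM, 7 with the replicate block and 0 to 5 with a library left out. For the other TRP genes 3 DEGs became 4 with DESeq2, with the likelihood ratio test and with the replicate block, and 2 to 5 with a library left out. The log2 FCs that changed sign with a library left out, among the genes named, were those of Clic1 (-0.172 to 0.0250), Ncf1 (-0.26 to 0.38), Bst1 (-0.15 to 0.36) and P2rx7 (-0.33 to 1.37), and Ncf1 was at 0.00667 with the replicate block. The cause of these differences was not tested. Kcnn4 was not tested under a mean of at least 1 CPM. Scaling by TMM, RLE or DESeq2 left the median over all genes at -0.02.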

Other observations

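Markers of other cell types were low or mixed. Their DEG counts stand beside 25.3% DEGs among all genes tested, 13.6% higher and 11.7% lower. Of 7 neuron markers 2 were tested, and Snap25, a component of the synaptic vesicle fusion machinery, rose from 0, 1 and 1 counts to 94, 153 and 81, at least 31.0-fold higher against a floor of 3 counts per LPS library (adjusted p = 0.00539). Tubb3, with most reads of that list, had 61, 35 and 239 against 202, 256 and 480 counts (log2 FC 1.28, adjusted p = 0.251; with the replicate block 1.59, adjusted p = 0.0316; without LPS replicate 3 2.51, adjusted p = 0.0277). The neuron markers summed to 1.70, 1.06 and 11.4 CPM with LPS and 6.39, 9.28 and 17.1 CPM with LPS/siponimod. Of 6 fibroblast and meningeal markers 5 were tested, and Dcn, which encodes the matrix proteoglycan decorin, rose from 3, 0 and 4 to 456, 49 and 178 counts (log2 FC 6.28, SE 1.18, adjusted p = 0.0155), a call lost without LPS replicate 1 or 2 or LPS/siponimod replicate 1 (0.0561 to 0.0688), with a log2 FC of 6.89 without LPS replicate 3 and 5.36 without LPS/siponimod replicate 1. The 6 markers summed to 6.05, 4.75 and 3.98 against 11.9, 4.64 and 8.66 CPM. Mbp was the only DEG among 3 tested oligodendrocyte markers (log2 FC 1.74, adjusted p = 0.0172), a call lost without LPS replicate 2 or LPS/siponimod replicate 1 or 3 (0.0554 to 0.0623). None of the 3 tested astrocyte markers was a DEG by the quasi-likelihood test, the likelihood ratio test or DESeq2, or had an unadjusted p under 0.05 (0 of 3). Of the 3 tested endothelial markers none was a DEG by the quasi-likelihood test, with 2 lower at an unadjusted p under 0.05 and 2 lower by the likelihood ratio test, by DESeq2 and with the block. The endothelial list, most of whose reads were from Cdh5, summed to 156, 202 and 82.0 against 37.4, 79.9 and 26.2 CPM, with Kdr at 0 in all libraries. None of 6 lymphocyte markers had enough reads to be tested, and Cd3e and Cd3g had no read. The part of these cell types in the results for channel genes was not tested.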
